A study of Rattus norvegicus with 6 samples.

Results

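The dystrophin-glycoprotein complex was described here through 8 genes, selected by symbol from the 31038 genes listed in the files: Dmd, Utrn, Dag1, Sgca, Sgcb, Sgcd, Sgce and Dtna. Each of the 8 symbols was found. The libraries came from rat cells labelled as myocardial cells and NRVM, an abbreviation that the labels leave unexplained, and the growth text names embryonic rat heart muscle and a serum-containing medium for both groups. 3 libraries were from cells given an siRNA against eIF3m, a subunit of translation initiation factor eIF3, and 3 were from cells given a control siRNA. The labels give neither the time after transfection nor the number of animals or cultures behind a library, so p-values measure the spread between these libraries, which may be technical.

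The complex spans the muscle cell membrane and ties the actin cytoskeleton to the basement membrane. Dystrophin, or utrophin in its place, binds actin inside the cell and beta-dystroglycan at the membrane. Alpha-dystroglycan outside the cell binds laminin through sugar chains added by a dedicated set of enzymes. Sarcoglycans stabilise the link, and dystrobrevins and syntrophins carry signalling proteins to it. Loss of dystrophin causes Duchenne muscular dystrophy and a cardiomyopathy, and loss of several sarcoglycans causes limb-girdle muscular dystrophies.

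Total counts ran from 2156186 to 10061575 in eIF3m siRNA libraries and from 7437285 to 8603602 in control siRNA libraries, the smallest being eIF3m replicate 2. Levels are given as CPM, the count relative to the library total after scaling by TMM, the trimmed-mean method of edgeR. Eif3m itself stood at 92, 84.1 and 87.6 CPM in eIF3m siRNA libraries, against 138, 136 and 141 CPM in control siRNA libraries, which is -0.64 ± 0.05 SE as a log2 fold change (edgeR quasi-likelihood test, adjusted p = 1.41e-07). Of 10 cardiomyocyte markers 8 were too low to test, among them Myh6, Myh7, Actn2, Ryr2, Myl2 and Myl7, so the labelled cell type is not borne out by its defining markers. The summed level of the 10 was 165 to 184 CPM in eIF3m siRNA libraries and 385 to 397 CPM in control siRNA libraries. Tnnt2 carried most of it. Nkx2-5, the other marker tested, averaged 21.4 CPM in eIF3m siRNA cells and 20.4 CPM in control siRNA cells. Markers of skeletal myoblasts summed to 42.9 to 49.1 CPM in eIF3m siRNA libraries and 84.7 to 90.1 CPM in control siRNA libraries. Of 6 tested, 0 were higher and 5 lower. Myod1 averaged 16 CPM in both groups, and Myog 5.58 CPM in eIF3m siRNA cells and 19.3 CPM in control siRNA cells. Myf5, Myf6 and Chrna1 were too low to test, and Pax7 was at 0 throughout. Red blood cell, endothelial, some fibroblast and some leukocyte transcripts marked out a single library. In eIF3m replicate 1 the red blood cell and endothelial lists summed to 6218 and 160 CPM, against at most 229 and 14.6 CPM in the other 5 libraries. Smooth muscle and pericyte markers summed to 3635 to 3825 CPM in eIF3m siRNA libraries and 5642 to 5781 CPM in control siRNA libraries. Of 6 tested, 1 was higher and 5 lower, and Acta2 carried most of the sum. Fibroblast markers summed to 14291 to 14812 CPM in eIF3m siRNA libraries and 13479 to 14039 CPM in control siRNA libraries (3 higher and 2 lower of 6). Col1a1 carried nearly all of that sum, averaging 13266 CPM in eIF3m siRNA cells and 12050.1 CPM in control siRNA cells. Thy1 (-0.55 ± 0.04 SE) and Ddr2 (-0.42 ± 0.04 SE) were the fibroblast markers called lower. Dcn, decorin, had 581, 5 and 15 counts in eIF3m siRNA libraries and 7, 10 and 8 counts in control siRNA libraries, and Lum, lumican, had 108, 9 and 24 counts in eIF3m siRNA libraries and 6, 2 and 7 counts in control siRNA libraries. Without eIF3m replicate 1 Dcn did not pass (0.81; edgeR, adjusted p = 0.241), Lum passed at 2.28 (edgeR, adjusted p = 0.00244), and 2 fibroblast markers were higher and 3 lower. Schwann cell markers summed to 27.1 to 29.8 CPM in eIF3m siRNA libraries and 11.6 to 13.8 CPM in control siRNA libraries, with Sox10 at 0. Leukocyte markers summed to 48.7, 20.8 and 22.9 CPM in eIF3m siRNA libraries, highest in replicate 1, and to 28.8 to 31.4 CPM in control siRNA libraries. These marker lists are pooled measures of the dish, in which fewer cells of a type and less RNA per cell cannot be told apart.

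Dag1, which encodes both dystroglycan subunits, fell by 50.7%, and Sgce and Utrn also fell, whereas Dmd rose. Sgcb and Sgca fell by less, and their calls were lost in 3 and 10 of 16 alternatives. Sgcd and Dtna did not pass the test. In all, 1 of the 8 members rose and 5 fell at an adjusted p under 0.05. Of all 12724 genes tested, 38.7% passed: 17.4% were higher and 21.2% lower in eIF3m siRNA cells. The median log2 fold change (eIF3m siRNA over control siRNA) was -0.29 for the 8 members and 0.01 for all genes tested. The median size of change was 0.38 for the members and 0.24 for all genes.

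**Figure D1:**
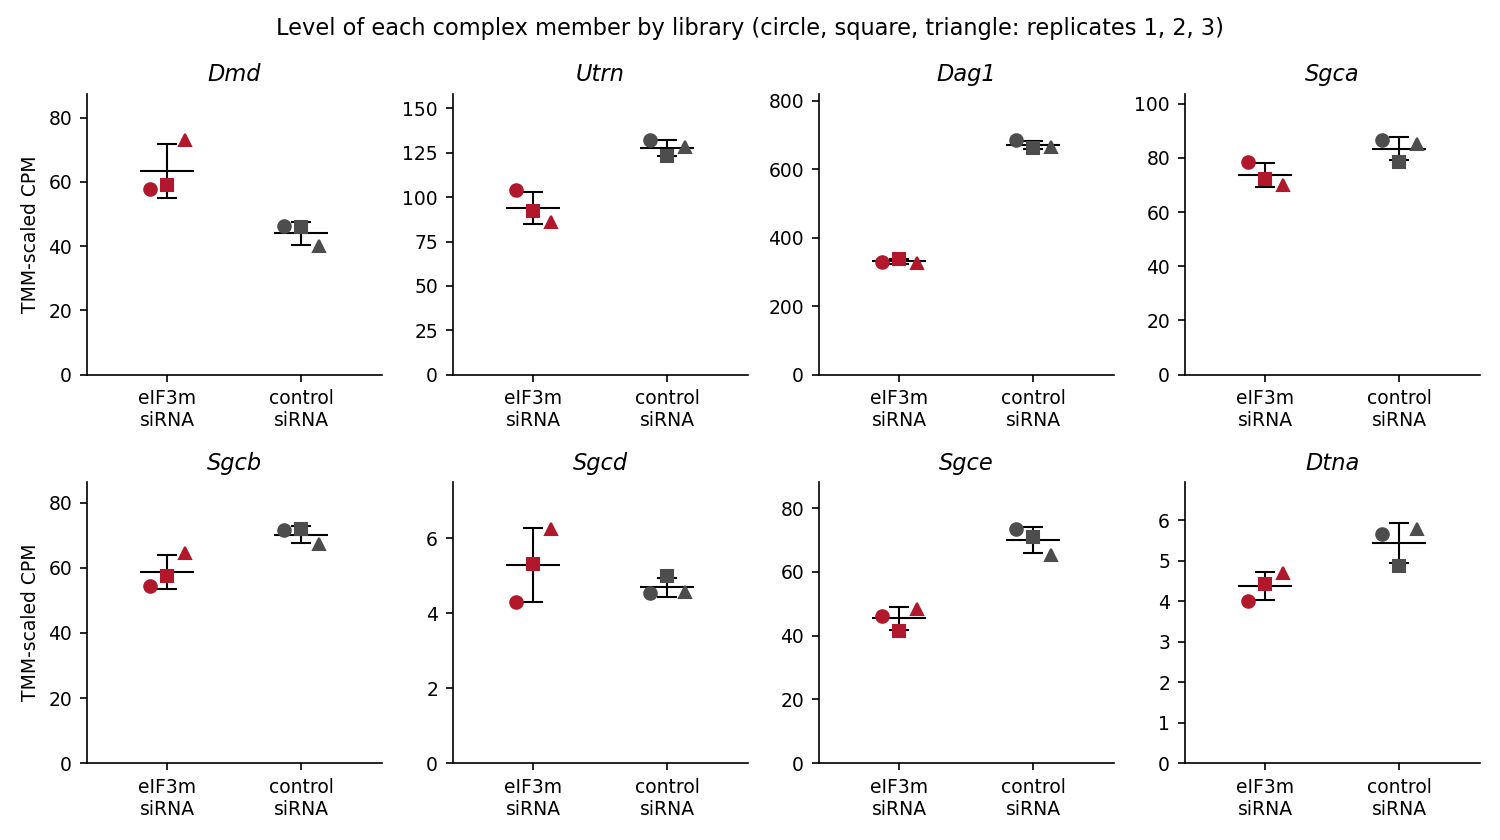
TMM-scaled CPM of the 8 members in each library, eIF3m siRNA in red and control siRNA in grey. Symbols are replicates, and the horizontal line and bars are the mean and SD of 3 libraries. Dag1 lies between 325 and 338 CPM in eIF3m siRNA libraries and between 662 and 684 CPM in control siRNA libraries. Dmd is the member whose eIF3m siRNA libraries all lie above the control siRNA libraries.

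Dmd encodes dystrophin, the actin-binding protein under the membrane. It was measured at 57.9, 58.9 and 72.9 CPM in eIF3m siRNA libraries, from 606, 133 and 606 counts, against 46.1, 45.8 and 39.9 CPM in control siRNA libraries, from 325, 358 and 324 counts. Every eIF3m siRNA library lay above every control siRNA library, and eIF3m replicate 3 was the highest. The mean was 63.2 ± 8.37 CPM in eIF3m siRNA cells and 43.9 ± 3.48 CPM in control siRNA cells (SD, n = 3 each). The log2 fold change was 0.54 ± 0.09 SE, 45.7% higher (edgeR, adjusted p = 2.21e-04). It remained called in each of 16 alternatives. Without eIF3m replicate 3 the change was 0.41 (edgeR, adjusted p = 0.00272) and without eIF3m replicate 1 it was 0.65.

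Dmd is read from several promoters, which give a full-length protein and shorter ones that lack the actin-binding end, and a count per gene pools them. RefSeq, in its rat assembly GRCr8, lists 3 Dmd starts in the sequence table used here, 1 of them 2.07 Mb upstream of the other pair, which lie 31 bases apart. The 250 bases before the upstream start and before the first of the downstream pair are shown because they differ in kind. Those before the starts of Utrn, the paralogue of Dmd, and of the paralogues Sgca and Sgce are shown for comparison. Coordinates are those of GRCr8, not of rn6, the build named for the files, and the sequences were matched by symbol. The upstream Dmd window is chrX:51205836-51206085 on the plus strand and the downstream one is chrX:53278763-53279012 on the plus strand. Those of Utrn (chr1:9044488-9044737), Sgca (chr10:80416076-80416325) and Sgce (chr4:33808789-33809038) are on the minus strand. Capitals mark matches on either strand to an E-box (CANNTG), a GC box (GGGCGG), an M-CAT element (CATTCC) or a CArG box.
Dmd upstream start: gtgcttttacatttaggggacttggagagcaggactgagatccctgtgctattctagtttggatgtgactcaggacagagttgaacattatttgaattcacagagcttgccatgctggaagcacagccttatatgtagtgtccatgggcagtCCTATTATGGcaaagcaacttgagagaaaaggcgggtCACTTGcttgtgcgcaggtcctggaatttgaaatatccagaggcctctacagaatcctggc
Dmd downstream start: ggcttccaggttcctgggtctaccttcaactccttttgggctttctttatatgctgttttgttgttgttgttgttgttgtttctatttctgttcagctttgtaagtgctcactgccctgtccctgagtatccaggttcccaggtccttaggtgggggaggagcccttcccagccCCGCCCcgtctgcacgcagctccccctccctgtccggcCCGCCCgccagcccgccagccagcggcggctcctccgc
Utrn: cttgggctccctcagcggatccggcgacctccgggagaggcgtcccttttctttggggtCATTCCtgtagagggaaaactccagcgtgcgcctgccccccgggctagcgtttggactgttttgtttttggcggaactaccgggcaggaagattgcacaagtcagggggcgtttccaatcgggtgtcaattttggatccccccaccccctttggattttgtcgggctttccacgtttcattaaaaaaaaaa
Sgca: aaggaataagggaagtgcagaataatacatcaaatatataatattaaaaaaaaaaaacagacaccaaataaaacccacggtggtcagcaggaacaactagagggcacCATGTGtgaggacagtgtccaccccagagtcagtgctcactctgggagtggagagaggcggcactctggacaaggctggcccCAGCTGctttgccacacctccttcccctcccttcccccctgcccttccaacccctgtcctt
Sgce: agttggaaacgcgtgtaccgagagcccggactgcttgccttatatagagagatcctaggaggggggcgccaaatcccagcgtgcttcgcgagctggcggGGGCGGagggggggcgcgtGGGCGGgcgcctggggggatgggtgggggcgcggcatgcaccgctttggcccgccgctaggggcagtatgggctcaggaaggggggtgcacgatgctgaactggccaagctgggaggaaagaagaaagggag
The upstream Dmd window is 46.8% G and C and holds a CArG box match, the kind of element that serum response factor binds, and an E-box match, the kind that myogenic factors bind. The downstream Dmd window is 59.6% G and C and holds 2 GC box matches. The Utrn window holds an M-CAT match alone. The Sgca window holds 2 E-box matches and the Sgce window, at 67.2% G and C, holds 2 GC box matches. Of 33469 windows of the same length in the table, 65.5% hold an E-box match, 30.5% a GC box match, 12.1% an M-CAT match and 1.5% a CArG box match. A match is a description of these letters and the counts do not say which Dmd start was in use. Of the 8 members 7 had a window.

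Utrn encodes utrophin, the autosomal relative of dystrophin, which is made in many tissues and can take the place of dystrophin when overproduced in dystrophic mice. It stood at 104, 92.1 and 86 CPM in eIF3m siRNA libraries, from 1088, 208 and 715 counts, against 132, 123 and 128 CPM in control siRNA libraries, from 932, 965 and 1035 counts. The groups did not overlap, and eIF3m replicate 3, which had the highest Dmd, had the lowest Utrn. The mean was 94 ± 9.16 CPM in eIF3m siRNA cells and 128 ± 4.36 CPM in control siRNA cells (SD, n = 3 each). The log2 fold change was -0.43 ± 0.07 SE, or -25.9% (edgeR, adjusted p = 9.95e-05). The alternatives ranged from -0.54, without eIF3m replicate 1, to -0.29, with no scaling factors, and each kept the call.

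Dividing Utrn by Dmd counts within a library removes the scaling between libraries. The ratio was 1.8, 1.56 and 1.18 in eIF3m siRNA libraries and 2.87, 2.7 and 3.19 in control siRNA libraries. The groups did not overlap, and the geometric mean was 1.49 in eIF3m siRNA cells against 2.91 in control siRNA cells, a difference of -0.97 on the log2 scale. The exact two-sided permutation test gave p = 0.1, the smallest this test can give with 3 against 3 libraries. The ratio depends on the length and mapping of both transcripts, so its absolute value does not rank dystrophin against utrophin.

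**Figure D2:**
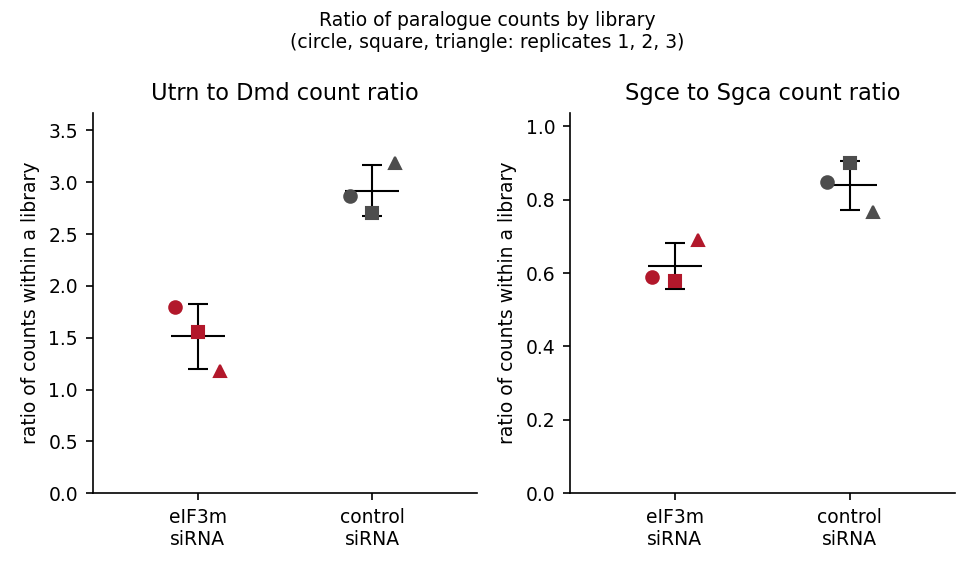
Ratio of Utrn to Dmd counts and of Sgce to Sgca counts in each library, eIF3m siRNA in red and control siRNA in grey, with the mean and SD of 3 libraries. The Utrn to Dmd ratio is at most 1.8 in eIF3m siRNA libraries and at least 2.7 in control siRNA libraries. The Sgce to Sgca ratio is at most 0.691 in eIF3m siRNA libraries and at least 0.767 in control siRNA libraries.

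Dag1 encodes a precursor that is cut into alpha-dystroglycan, the laminin receptor outside the cell, and beta-dystroglycan, its membrane-spanning anchor for dystrophin and utrophin. It was measured at 329, 338 and 325 CPM in eIF3m siRNA libraries, from 3446, 764 and 2703 counts, against 684, 662 and 665 CPM in control siRNA libraries, from 4822, 5177 and 5396 counts. The 3 libraries of each group lay close together and the groups were far apart. The mean was 331 ± 6.71 CPM in eIF3m siRNA cells and 670.4 ± 11.7 CPM in control siRNA cells (SD, n = 3 each). The log2 fold change was -1.02 ± 0.04 SE, or -50.7% (edgeR, adjusted p = 1.05e-11). Its p ranked 36 among the 12724 genes tested, and 1.6% of genes had a log2 fold change at or below its own. Leaving out any library gave -1.03 to -1.01.

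The sarcoglycans form a subcomplex beside dystroglycan. Sgca, alpha-sarcoglycan, is a protein of striated muscle, while Sgce, epsilon-sarcoglycan, is its more widely expressed paralogue and is imprinted in mouse and human. Sgce stood at 46.2, 41.6 and 48.5 CPM in eIF3m siRNA libraries, from 483, 94 and 403 counts, against 73.5, 70.8 and 65.4 CPM in control siRNA libraries, from 518, 553 and 531 counts. The groups did not overlap, and the mean of 45.4 ± 3.49 CPM in eIF3m siRNA cells against 69.9 ± 4.09 CPM in control siRNA cells corresponded to a log2 change of -0.59 ± 0.07 SE, or -33.6% (edgeR, adjusted p = 5.91e-06). Among all genes tested 6.89% had a log2 fold change at or below that of Sgce.

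Sgca stood at 78.6, 72.2 and 70.1 CPM in eIF3m siRNA libraries, from 822, 163 and 583 counts, against 86.5, 78.6 and 85.3 CPM in control siRNA libraries, from 610, 614 and 692 counts. The groups met at 78.6 CPM, the highest eIF3m siRNA and the lowest control siRNA value. The mean was 73.6 ± 4.41 CPM in eIF3m siRNA cells and 83.5 ± 4.28 CPM in control siRNA cells (SD, n = 3 each), a log2 fold change of -0.17 ± 0.06 SE (edgeR, adjusted p = 0.0375). This call was lost in 10 of 16 alternatives. Among them were DESeq2 (-0.17, adjusted p = 0.141), limma-voom (-0.16, adjusted p = 0.0555) and the fits without eIF3m replicate 2 (-0.16), eIF3m replicate 3 (-0.12), control replicate 1 (-0.15) or control replicate 3 (-0.16). With no scaling factors it was at -0.02.

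The Sgce to Sgca count ratio was 0.588, 0.577 and 0.691 in eIF3m siRNA libraries and 0.849, 0.901 and 0.767 in control siRNA libraries. The groups did not overlap, and the log2 difference was -0.44 (exact two-sided permutation test, p = 0.1, the smallest this test can give). Sgce was thus lower relative to Sgca in every eIF3m siRNA library than in any control siRNA library.

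Sgcb, beta-sarcoglycan, and Sgcd, delta-sarcoglycan, form the core around which the sarcoglycan subcomplex assembles. Sgcb stood at 54.4, 57.6 and 64.5 CPM in eIF3m siRNA libraries, from 569, 130 and 536 counts, against 71.5, 72 and 67.3 CPM in control siRNA libraries, from 504, 563 and 546 counts. The groups were separate by a narrow gap, between 64.5 CPM in eIF3m replicate 3 and 67.3 CPM in control replicate 3. The mean was 58.8 ± 5.15 CPM in eIF3m siRNA cells and 70.3 ± 2.6 CPM in control siRNA cells (SD, n = 3 each), a log2 fold change of -0.25 ± 0.07 SE (edgeR, adjusted p = 0.00892). Without eIF3m replicate 1, the library with red blood cell transcripts, it was at -0.16 and did not pass (edgeR, adjusted p = 0.115), nor did it pass with no scaling factors (-0.11) or thinned libraries (-0.14).

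Sgcd was a low gene, with 45, 12 and 52 counts in eIF3m siRNA libraries and 32, 39 and 37 counts in control siRNA libraries. These were 4.3, 5.31 and 6.25 CPM in eIF3m siRNA libraries and 4.54, 4.99 and 4.56 CPM in control siRNA libraries, and the groups overlapped. Its log2 fold change was 0.16 ± 0.24 SE (edgeR, adjusted p = 0.637), and it turned to -0.03 without eIF3m replicate 3. The SE was larger than the change, so these counts set no direction for Sgcd.

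Dtna encodes alpha-dystrobrevin, which binds dystrophin and the syntrophins on the inner face of the membrane. It had 42, 10 and 39 counts in eIF3m siRNA libraries and 40, 38 and 47 counts in control siRNA libraries. On the CPM scale these were 4.01, 4.43 and 4.69 in eIF3m siRNA libraries and 5.67, 4.86 and 5.79 in control siRNA libraries. The groups did not overlap, but the log2 fold change of -0.32 ± 0.23 SE did not pass the test (edgeR, adjusted p = 0.294), nor did it in the 15 alternatives that gave a value.

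Counting separation alone, 6 of the 8 members had groups whose libraries did not overlap on the CPM scale, 1 higher and 5 lower in eIF3m siRNA cells, and 48.6% of all genes tested did so. Sgca and Sgcd were the members whose groups met or overlapped.

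**Figure D3:**
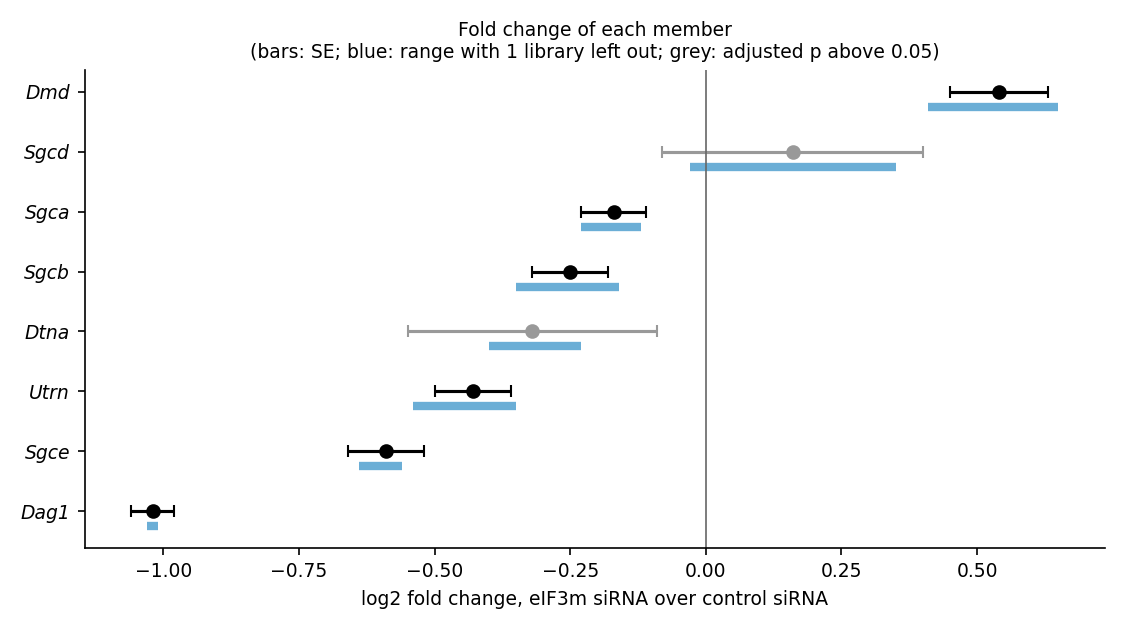
Log2 fold change of each member, eIF3m siRNA over control siRNA, with SE bars, black where the adjusted p was under 0.05 and grey otherwise. Blue bars give the range when each library was left out in turn. Dag1 is lowest at -1.02 with a range from -1.03 to -1.01, Dmd is highest at 0.54 with a range from 0.41 to 0.65, and the range of Sgcd, from -0.03 to 0.35, crosses 0.

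The make-up of the members' counts differed between the groups. Dag1 held 48.5%, 50.5% and 48% of the counts of the 8 genes in eIF3m siRNA libraries, against 62%, 62.3% and 62.7% in control siRNA libraries. Dmd held 8.53%, 8.78% and 10.8% in eIF3m siRNA libraries, against 4.18%, 4.31% and 3.76% in control siRNA libraries. With less of the total in Dag1, the shares of Utrn, Sgca, Sgcb, Sgcd and Dtna were also larger in every eIF3m siRNA library than in any control siRNA library, although the CPM of Utrn, Sgca and Sgcb fell. Sgca held 11.6%, 10.8% and 10.3% in eIF3m siRNA libraries, against 7.84%, 7.39% and 8.04% in control siRNA libraries. The share of Sgce overlapped between the groups. These shares depend on transcript length and do not rank the genes, but they are free of the scaling between libraries. The summed level of the 8 members was 679, 670.3 and 678 CPM in eIF3m siRNA libraries and 1104, 1063 and 1061 CPM in control siRNA libraries. Without Dag1 the sum of the other 7 was 345 ± 11.1 CPM in eIF3m siRNA cells and 405 ± 12.8 CPM in control siRNA cells (SD, n = 3 each).

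Among 4 lists of partner genes, 36 of 46 genes could be tested, of which 3 rose and 18 fell in eIF3m siRNA cells, with a median log2 fold change of -0.19. That is 8.33% higher and 50% lower, beside 17.4% higher and 21.2% lower of all genes tested. Deeply counted genes can pass at smaller changes, and the depth of the lists was not matched to that of all genes. The lists were also chosen with earlier results of these data known. The other subunits of the complex came to 1 risen and 1 fallen of 3 tested. Sntb1, a syntrophin, an adaptor that binds dystrophin and dystrobrevin, stood at 13.2, 14.6 and 12.6 CPM in eIF3m siRNA libraries, against 24.7, 25.6 and 21.1 CPM in control siRNA libraries (-0.85 ± 0.12 SE; edgeR, adjusted p = 5.92e-05). Dtnb, beta-dystrobrevin, rose (58.1 ± 2.88 CPM in eIF3m siRNA cells, 48 ± 2.35 CPM in control siRNA cells; 0.27 ± 0.07 SE; edgeR, adjusted p = 0.0049), a call lost with thinned libraries. Another syntrophin, Sntb2 (0.49 ± 0.21 SE), did not pass (edgeR, adjusted p = 0.0744), although it passed in 5 alternatives, among them the fit without eIF3m replicate 1 (0.66; edgeR, adjusted p = 0.0213). Sspn, sarcospan, a small membrane protein of the complex, had 23, 2 and 3 counts in eIF3m siRNA libraries and 7, 4 and 7 counts in control siRNA libraries and was not tested. Its 23 counts were in eIF3m replicate 1, the library with red blood cell and endothelial transcripts. Sgcz, Sntg1 and Sntg2 had at most 1 count in any library.

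Genes for chains of laminins, and for other ligands that alpha-dystroglycan can bind, counted 1 risen and 7 fallen of 8 tested. Their median log2 fold change was -0.32. The fallen share was 87.5%, beside 21.2% of all genes. The list holds alpha, beta and gamma chains as parts of laminins, and was not limited to chains that bind alpha-dystroglycan themselves. Each of the 8 was called, among them Hspg2 at -0.16 on 1484 to 7133 counts a library. Lamc1, the laminin gamma chain shared by most laminins, stood at 692, 749 and 723 CPM in eIF3m siRNA libraries and 1428, 1427 and 1409 CPM in control siRNA libraries (-0.98 ± 0.03 SE; edgeR, adjusted p = 1e-12). Lamb2, a beta chain of muscle and synaptic laminins, averaged 466 ± 19.6 CPM in eIF3m siRNA cells and 894 ± 15.1 CPM in control siRNA cells (-0.94 ± 0.04 SE). Lama5 (-0.37 ± 0.02 SE), Lamb1 (-0.27 ± 0.04 SE), the guidance protein Slit2 (-0.54 ± 0.05 SE) and Hspg2, perlecan (-0.16 ± 0.03 SE), also fell, and Hspg2 was at -0.02 and did not pass with no scaling factors. Agrn, agrin, the proteoglycan that organises the neuromuscular junction, rose (142 ± 10.1 CPM in eIF3m siRNA cells, 120.3 ± 3.39 CPM in control siRNA cells; 0.25 ± 0.06 SE; edgeR, adjusted p = 0.0022), and did not pass with thinned libraries. Lama2, the alpha chain of the laminin of adult muscle, had 70 counts in eIF3m replicate 1, the library with red blood cell and endothelial transcripts, and at most 5 in any other library. It was not tested.

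Intracellular partners counted 0 risen and 7 fallen of 11 tested by edgeR, with a median of -0.41. The fallen share was 63.6%, beside 21.2% of all genes. At an unadjusted p under 0.05, 0 were higher with edgeR, 0 with DESeq2 and 1 with limma-voom. At an adjusted p under 0.05, 2 were higher with upper-quartile scaling, 2 with no scaling factors and 1 with no filter (edgeR). Dysf, dysferlin, a membrane repair protein of muscle, stood at 112, 104 and 109 CPM in eIF3m siRNA libraries and 276, 279 and 288 CPM in control siRNA libraries (-1.37 ± 0.05 SE; edgeR, adjusted p = 1.59e-11), and its groups did not overlap. Cav3, the caveolin of muscle, which binds beta-dystroglycan, stood at 29.3, 27 and 29.7 CPM in eIF3m siRNA libraries and 47.5, 45.3 and 46.7 CPM in control siRNA libraries (-0.68 ± 0.08 SE). Actg1, the cytoplasmic actin to which dystrophin binds (-0.51 ± 0.03 SE), Ank2, an ankyrin that helps to place dystrophin at the membrane in mouse muscle (-0.41 ± 0.05 SE), Rapsn, the receptor-clustering protein rapsyn (-0.46 ± 0.05 SE), and Syne1, nesprin-1 of the nuclear envelope (-0.64 ± 0.05 SE), fell as well. For Dysf and Syne1 no binding to the complex is given here, although both enter the count and the median of this list. Nos1, the neuronal nitric oxide synthase that dystrophin and the syntrophins hold at the membrane, had 22, 0 and 1 counts in eIF3m siRNA libraries and 0 in each control siRNA library, and was not tested. Its 22 counts were in eIF3m replicate 1, the library with red blood cell and endothelial transcripts.

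Enzymes that build the laminin-binding sugar chain of dystroglycan, or make shared sugar precursors, counted 1 risen and 3 fallen of 14 tested. Their median was -0.15. These shares, 7.14% higher and 21.4% lower, stand beside 17.4% higher and 21.2% lower of all genes, so the fallen count is at the background and is no result about the enzymes as a list. Pomgnt1, an N-acetylglucosaminyltransferase of the pathway, stood at 122, 134 and 125 CPM in eIF3m siRNA libraries and 199, 178 and 193 CPM in control siRNA libraries (-0.59 ± 0.06 SE; edgeR, adjusted p = 7.84e-07). Its groups did not overlap. Dolk, dolichol kinase (-0.71 ± 0.12 SE), and Dpm3, a subunit of the dolichol phosphate mannose synthase (-0.72 ± 0.26 SE), also fell. Neither is particular to dystroglycan, as both serve other sugar chains too. The Dpm3 call was lost in 9 of 14 alternatives, among them the fit without eIF3m replicate 1 (-0.76; edgeR, adjusted p = 0.0665). Pomt2, a protein O-mannosyltransferase, rose by a small amount (0.24 ± 0.09 SE; edgeR, adjusted p = 0.048), and this was lost in 11 of 16 alternatives, among them the fit without any 1 of the 6 libraries. The other 10 enzymes tested did not pass.

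**Figure D4:**
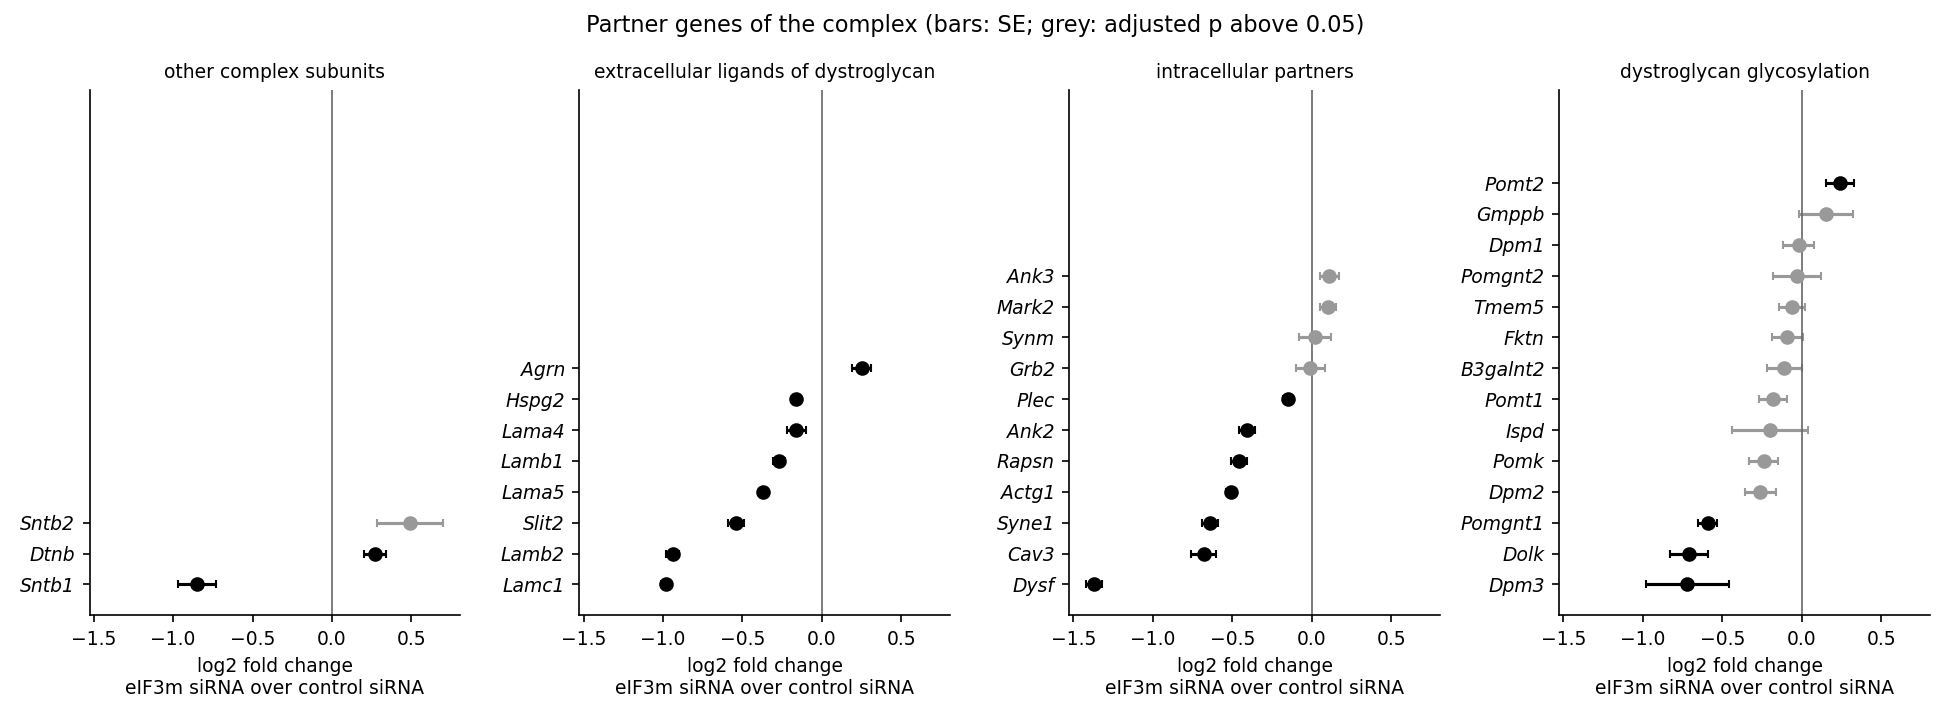
Log2 fold change, eIF3m siRNA over control siRNA, of the 36 partner genes tested, with SE bars, black where the adjusted p was under 0.05 and grey otherwise. Among intracellular partners, ligands and glycosylation enzymes most called genes lie left of 0. Dysf (-1.37), Lamc1 (-0.98) and Lamb2 (-0.94) are farthest left, and Dtnb (0.27), Agrn (0.25) and Pomt2 (0.24) are the called genes on the right.

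Among the muscle markers, Tnnt2 (-1.27 ± 0.05 SE) and 5 of the 6 skeletal myoblast markers tested, namely Myog, Chrnd, Myh3, Des and Tmem8c, were lower in eIF3m siRNA cells as well. Nkx2-5 (0.03 ± 0.12 SE) and Myod1 (-0.09 ± 0.16 SE) did not pass, and the other 8 cardiomyocyte markers were not tested. Lower values were not confined to striated muscle markers. Of 6 smooth muscle and pericyte markers tested, 5 were lower and 1 higher, and of 6 fibroblast markers 2 were lower and 3 higher. The part of these markers in the lower Cav3, Dysf or Sgce values was not tested. Dmd, whose counts pool its full-length and shorter products, was higher in the same libraries. Without eIF3m replicate 1, 1 member rose and 4 fell, the lost call being Sgcb, and among the partner genes 3 rose and 16 fell, with the Dpm3, Lama4 and Pomt2 calls lost and Sntb2 called.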

How the data were processed

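Counts per gene from 6 libraries were compared, 3 from eIF3m siRNA and 3 from control siRNA cells. The files hold whole-number counts that the authors deposited without normalisation. The build rn6 and the tools HISAT2 2.2.1, Trimmomatic 0.40, limma, featureCounts and DESeq2 come from the submitters' processing notes, without their roles. The annotation used and the settings for strand and multi-mapping reads were not stated, so reads shared by overlapping genes or paralogues may be split in ways that cannot be seen.

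In each file 27 symbols had become calendar dates, with 0.203% to 0.216% of counts, and were left out. filterByExpr (minimum count 10, minimum total 15) kept 12724 genes, and all 8 members passed. The test was the quasi-likelihood F-test of edgeR 4.0.16 in R 4.3.3 with TMM scaling and no covariate, two-sided, with Benjamini-Hochberg adjustment over all genes tested. SE is the log2 fold change over the root of F. The floor of 3 counts was worth 0.287 to 1.33 CPM and covers counting error alone. Alternatives used DESeq2 1.42.0, limma-voom 3.58.1, other scalings and filters, robust dispersion, thinned libraries, a replicate block and leaving out each library. No pairing by replicate number was seen. Same-numbered libraries had correlations of deviations of 0.029, -0.008 and 0.009, and differently numbered ones had -0.041 to 0.029. With 3 libraries a group this check cannot show that the samples were unpaired. The steps were tested on simulated data. Promoter windows are from RefSeq (GRCr8).

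The members, partner lists and markers were chosen with earlier results of these data known. Named genes are the members, Eif3m, every subunit of the partner list, Nos1, Cav3, up to 6 called genes per partner list by p, and any direction that 5 or fewer took. A few genes of these lists are not reported here and enter no list count. Lama2 and Sspn counts, and marker genes, are given for what they show of depth and single libraries.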

Additional observations from a re-analysis of the deposited data

How the results depend on the processing

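Dmd, Utrn, Dag1 and Sgce kept their direction and their call in all 16 alternatives, and Dtna stayed uncalled in the 15 that gave a value. With no scaling factors, a setting that moved the median of all genes by 0.15 on the log2 scale, 4163 genes rose and 1680 fell (71.2% of calls higher, against 45.1% with TMM), and 3 members fell. Upper-quartile scaling gave 58.6% of calls higher. Of the partner genes, 6 rose with upper-quartile scaling and 6 with no scaling factors, against 3 with TMM. With libraries thinned to the smallest, 1360 genes rose and 1771 fell, 3 members fell and 0 partner genes rose (edgeR; 1 at an unadjusted p under 0.05; 2 rose with DESeq2 and 3 with limma-voom at full depth). Sgcd, at 0.16, ranged from -0.03 without eIF3m replicate 3 to 0.35 without eIF3m replicate 1, and the cause was not tested. With a replicate block 2123 genes rose and 2632 fell, 1 member rose and 5 fell, and the Pomt2 call was lost (adjusted p = 0.0941). The paired exact test of the ratios gave p = 0.25, the smallest 3 pairs allow. Leaving out each library gave ratio differences of -1.1 to -0.8 for Utrn to Dmd and -0.52 to -0.39 for Sgce to Sgca, 4 to 5 members fallen and 1 risen. Counts were too low to test 10 of the 46 partner genes, and Sgcd, Dtna and Dpm3 were tested on 7 to 52 counts a library.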
